A study of Homo sapiens with 4 samples.

Results

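The genes described here encode the nuclear parts of the mitochondrial respiratory chain and of ATP synthase. They were chosen by name: the numbered NDUFA, NDUFAB, NDUFB, NDUFC, NDUFS and NDUFV genes of complex I, the SDH subunit genes of complex II, CYC1 and the UQCR genes of complex III, the COX5 to COX8 genes of complex IV, and the ATP5F, ATP5M and ATP5P genes of complex V. Of the 18132 genes that the array named through a single symbol, 80 were members, 36 of complex I, 3 of complex II, 9 of complex III, 14 of complex IV and 18 of complex V. RNA came from U87MG, an established human glioblastoma cell line, transfected either with the PCMV control vector (2 arrays) or with a vector that overexpresses the neuronal transcription factor NeuroD2 (2 arrays). All cultures, controls included, were kept at 0.2% oxygen and harvested 48 hours after transfection, so no array shows these genes at normal oxygen. U87MG is a single line, and the share of cells that took up a vector was not analysed here. The samples are called biological replicates, but how the cultures were separated is not stated, so p-values measure the spread between these samples. The values are deposited signals taken to be log2, in which a difference of 1 is a doubling. The number of arrays limits the precision.

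The respiratory chain passes electrons from NADH, through complex I, and from succinate, through complex II, to ubiquinone, then through complex III and cytochrome c to complex IV, which reduces oxygen. Complexes I, III and IV pump protons out of the mitochondrial matrix, and ATP synthase, or complex V, lets them flow back to make ATP. Most subunits are encoded in the nucleus and a few in mitochondrial DNA, and the factors NRF1 and GABP, an ETS-family factor, are known activators of many of the nuclear genes. In hypoxia the HIF factors are known to limit electron flow, for example by exchanging subunit isoforms and by shunting pyruvate away from mitochondria.

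Promoters were examined for what the members share in sequence. The 250 bases before the RefSeq start site (GRCh38.p14) were matched for 65 of the 80 members. The NRF1 motif (GCGCA, any 1 base, then GCGC), searched on both strands, was present in 14 of these 65 windows, or 21.5%, against 7.99% of 14425 promoters of genes on the array. The ETS core CCGGAAG, on both strands, was present in 16, or 24.6%, against 12.1%. Members held the hypoxia-response core ACGTG in 23.1% (all array genes 21.0%), the E-box CAGATG in 7.69% (9.65%) and the E-box CAGCTG in 15.4% (13.4%), and E-boxes are the kind of site that NeuroD factors bind. The YY1 motif AAGATGGC was in 1 window. A letter match is a description and not a bound site, and the motifs were chosen after some of these sequences had been seen. The median difference between vectors was -0.12 for members with the NRF1 motif and -0.11 for those without, and -0.12 and -0.11 for members with and without the ETS core. For each complex, the promoter shown is that of the member with the largest absolute difference among those printable here with an NRF1 or ETS match. The sequences run 5′ to 3′ on the gene's strand up to the base before the start site, with NRF1 and ETS matches on either strand in capitals, and no base lies in both kinds of match.
NDUFA1, complex I, chrX:119871582-119871831, plus strand: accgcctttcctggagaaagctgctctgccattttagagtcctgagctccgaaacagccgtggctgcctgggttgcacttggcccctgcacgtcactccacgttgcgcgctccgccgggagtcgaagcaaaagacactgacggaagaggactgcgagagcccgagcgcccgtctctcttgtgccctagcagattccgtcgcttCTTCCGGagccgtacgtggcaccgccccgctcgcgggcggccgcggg
SDHA, complex II, chr5:218070-218319, plus strand: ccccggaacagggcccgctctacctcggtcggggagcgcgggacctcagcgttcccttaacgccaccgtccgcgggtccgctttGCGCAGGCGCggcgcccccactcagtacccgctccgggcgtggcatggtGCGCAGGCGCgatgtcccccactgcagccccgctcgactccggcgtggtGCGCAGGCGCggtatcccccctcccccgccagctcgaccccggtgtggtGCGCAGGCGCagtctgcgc
UQCRQ, complex III, chr5:132866392-132866641, plus strand: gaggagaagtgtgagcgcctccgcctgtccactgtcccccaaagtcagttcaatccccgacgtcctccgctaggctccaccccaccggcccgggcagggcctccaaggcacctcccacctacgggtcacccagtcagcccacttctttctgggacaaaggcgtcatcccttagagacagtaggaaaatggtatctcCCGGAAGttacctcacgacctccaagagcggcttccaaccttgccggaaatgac
COX8A, complex IV, chr11:63974370-63974619, plus strand: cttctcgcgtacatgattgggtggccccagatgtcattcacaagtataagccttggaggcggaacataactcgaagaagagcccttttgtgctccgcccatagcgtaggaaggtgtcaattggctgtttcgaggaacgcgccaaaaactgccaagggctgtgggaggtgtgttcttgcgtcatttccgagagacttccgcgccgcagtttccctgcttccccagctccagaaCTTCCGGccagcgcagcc
ATP5ME, complex V, chr4:674277-674526, minus strand: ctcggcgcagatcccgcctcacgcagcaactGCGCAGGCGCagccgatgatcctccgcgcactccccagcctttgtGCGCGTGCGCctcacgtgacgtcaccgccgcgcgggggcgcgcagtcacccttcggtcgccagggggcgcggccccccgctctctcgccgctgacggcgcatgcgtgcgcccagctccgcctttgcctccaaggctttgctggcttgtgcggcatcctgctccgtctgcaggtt
The SDHA window holds 4 NRF1 matches and the ATP5ME window 2, while the other 3 windows hold 1 ETS match each.

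Most of the 80 genes read slightly lower with the NeuroD2 vector, and no single gene passed the test. The difference, NeuroD2 minus control, was below 0 in 67 members, against 50.0% of all genes. Its median was -0.11, which corresponds to a percent change of -7.06, and the median over all genes was 0. Both NeuroD2 arrays lay below both control arrays in 51 members (63.75%), against 26.6% of all genes, and above both in 6 members (7.5%), against 24.2%. Among non-members of like signal, counted below, the share separated lower was 37.0%. By limma, 0 of the 80 passed an adjusted p of 0.05, against 4.77% of all genes (2.96% lower and 1.81% higher), and the smallest adjusted p was 0.0912. At an unadjusted p below 0.05 there were 7 lower members, against 12.5% of all genes, and 1 higher member, against 9.27%. Together these were 10.0% of members, below the 21.8% of all genes, while the share of separated, lower members was above its background. In bulk RNA, fewer transcripts per cell and fewer cells that express a gene cannot be told apart.

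The size of these differences was close to the distance between the control arrays. The mean over the 80 members was 11.21 and 11.15 on control arrays 1 and 2, and 11.09 and 11.10 on NeuroD2 arrays 1 and 2. Both NeuroD2 arrays were thus lower than either control, but control array 2 lay between control array 1 and the NeuroD2 arrays. The median absolute distance within a member was 0.10 for the pair of controls and 0.03 for the NeuroD2 pair. Over all genes these medians were 0.12 and 0.07, and over non-members of like signal 0.09 and 0.03. In 35 members the controls differed by more than the vectors did. Control array 1 was the highest of the 4 arrays in 48 members and control array 2 in 22. Against control array 2 alone the median difference was -0.07, with 59 members lower, and against control array 1 alone it was -0.12, with 68 lower. In 56 members the NeuroD2 mean was below each control taken alone, against 34.3% of all genes. The lowest and highest 95% interval bounds over all members were -0.48 and 0.48, so these arrays leave room for a fall of 0.3 in 36 members and for one of 0.5 in 0.

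**Figure D1:**
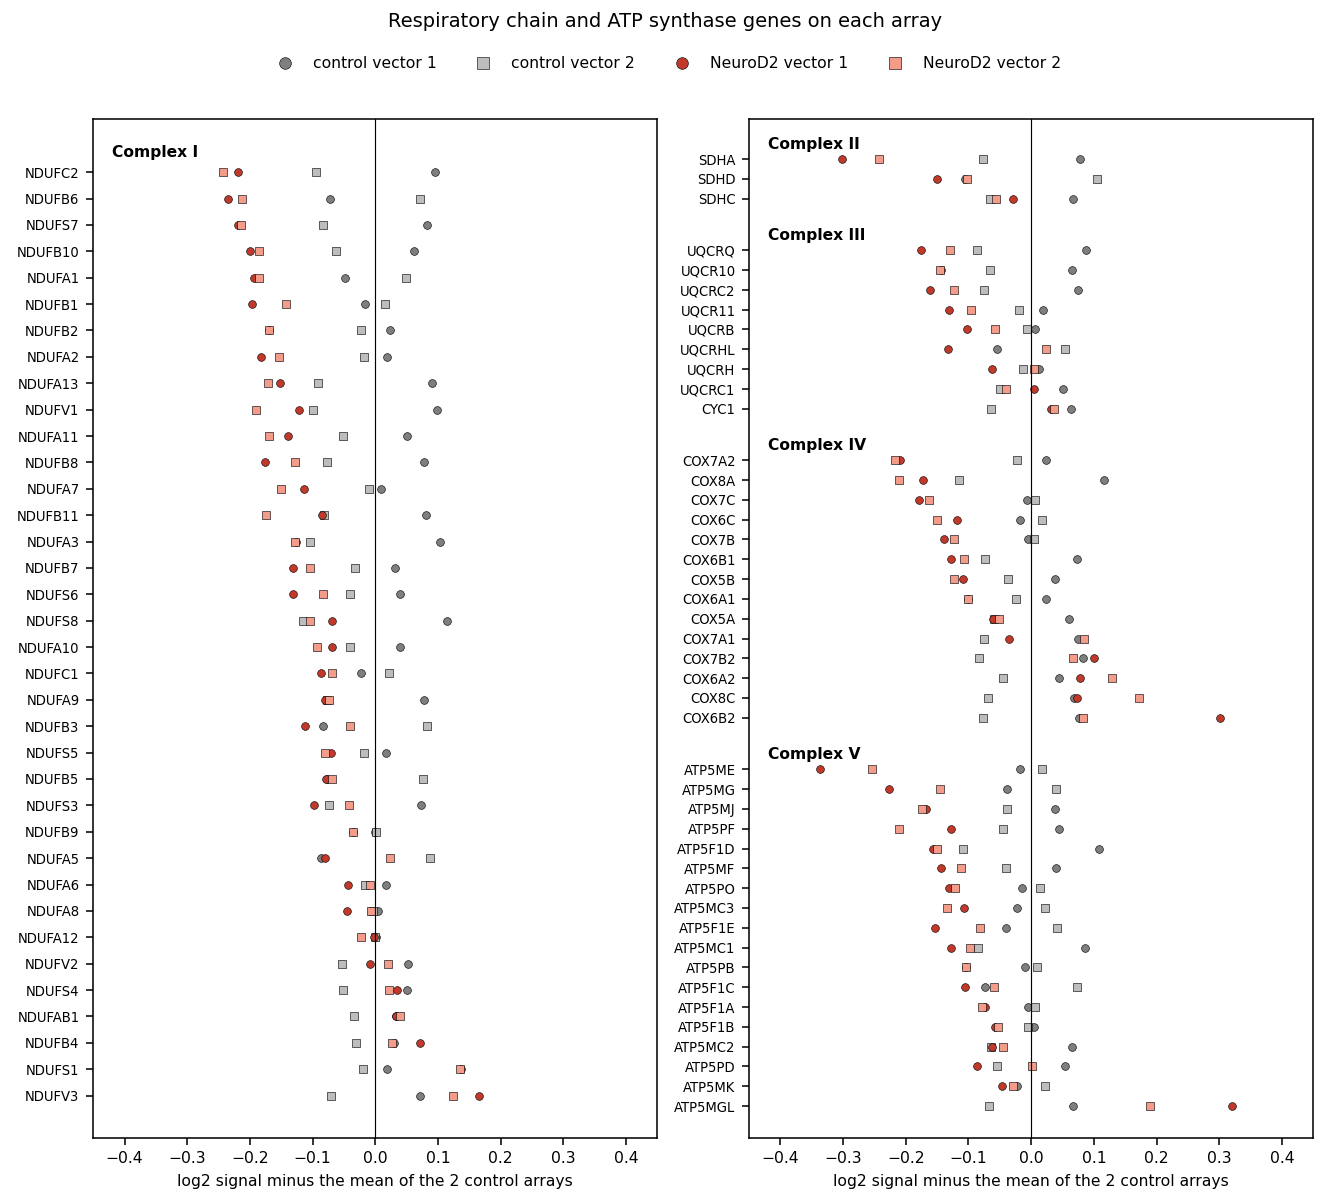
Log2 signal of each of the 80 members on each array, minus the mean of the 2 control arrays (horizontal axis), with genes in rows by complex and sorted by their difference. Circles are replicate 1 and squares replicate 2, grey for the control vector and red for the NeuroD2 vector; in 51 members both red points lie left of both grey points, and the grey points are spread more widely than the red ones in most rows.

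NEUROD2, the transfected gene, read 5.46 and 5.35 on the control arrays and 7.37 and 7.82 on the NeuroD2 arrays on its brightest probe set, a difference of 2.19 (adjusted p = 0.0044 by limma). Its other 2 probe sets differed by -0.21 and -0.07, so that the 3 averaged to 0.64 (adjusted p = 0.013 by limma). Without control array 1 or 2 the difference of the brightest probe set was 2.25 or 2.14. The control RNAs added at hybridisation averaged 0.39 higher on the NeuroD2 arrays, with all arrays between 9.56 and 10.13, and 0.22 higher without control array 1. The poly-A spikes read 6.95 on control array 1 and 7.96 to 8.03 on the others, so that array stands apart in labelling controls. Of 8 marker genes fixed for a mesenchymal glioblastoma line 7 were measured, and VIM, CD44, ANXA1, S100A6 and LGALS1 gave signals from 12.74 to 14.18 on every array. The other members of that list, FN1 and CHI3L1, fell by 0.63 and 0.51 (adjusted p = 0.0318 and 0.0383 by limma). FN1 read 10.92 to 11.69, but CHI3L1 gave a low signal on every array (4.80 to 5.43). The glial marker GFAP read 6.07 to 6.35 (difference 0.24, adjusted p = 0.134 by limma), or 0.08 averaged over its 8 probe sets. The glial SLC1A3 fell by 0.41 (adjusted p = 0.0409 by limma), but averaged over its 5 probe sets it differed by -0.15. The neuronal SNAP25 fell by 0.59 (adjusted p = 0.0312 by limma), and averaged over its 4 probe sets it differed by -0.55. No other gene of the marker lists passed. Of the 6 neuronal genes 3 were lower and 3 higher, the highest being STMN2 (0.21, or 0.04 averaged over its 4 probe sets). Of the 6 glial genes 1 was lower and 5 higher, the highest being OLIG2 (0.39, adjusted p = 0.0829 by limma). Mean signals of marker lists for other cells were, on control and NeuroD2 arrays, 6.66 to 6.67 and 6.49 to 6.55 for 6 neuronal genes, 5.39 to 5.49 and 5.52 to 5.54 for 6 glial genes, and 5.45 to 5.55 and 5.56 to 5.59 for 5 immune genes. They were 4.60 to 4.72 and 4.65 to 4.75 for 4 endothelial genes, and 4.64 to 4.75 and 4.72 to 4.74 for 4 muscle genes. These means hide wide ranges. Among the neuronal genes TUBB3 read 10.85 to 11.02 and NEFL 3.48 to 3.56. Among the immune genes CD68 read 10.07 to 10.21 and PTPRC 2.95 to 3.53. Detection calls were not used here, and the part of these differences in the results below was not tested.

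Complex I, the entry point for electrons from NADH, had 30 of its 36 measured genes lower, with a median of -0.08 (-0.06 against control array 2 alone and -0.14 against control array 1 alone). Differences ran from -0.23 to 0.14, and adjusted p-values from 0.194 to 0.987 by limma. The groups were separated with NeuroD2 lower in 23 genes (63.9%, against 26.6% of all genes) and with NeuroD2 higher in 2 (5.56%, against 24.2%). The accessory subunits of the NDUFB and NDUFC families, which are built mostly into the membrane arm, had the lowest median of the 4 classes examined, -0.13, with 12 of 13 lower. The 13 NDUFA and NDUFAB1 accessory genes had a median of -0.08, with 12 lower. Among the 6 measured core subunits, which carry the flavin and iron-sulphur centres, 4 were lower and the median was -0.08. It was -0.17 against control array 1 alone but 0.02 against control array 2 alone. The other 4 accessory genes, NDUFS4, NDUFS5, NDUFS6 and NDUFV3, had a median of -0.02.

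NDUFC2, a membrane-arm subunit, read 11.49 and 11.30 with the control vector and 11.18 and 11.15 with NeuroD2. The difference of -0.23 (standard error 0.09, adjusted p = 0.217 by limma) was the lowest in complex I, and it was -0.14 against control array 2 alone. NDUFB6, another membrane-arm subunit, read 11.37 and 11.51 against 11.20 and 11.23, a difference of -0.22 (adjusted p = 0.194 by limma). Here control array 2 was the higher control, and the difference was -0.15 against control array 1 alone. All probe sets of both genes were lower.

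NDUFS7 encodes the core subunit next to the ubiquinone site. It read 11.14 and 10.97 on the control arrays and 10.83 and 10.84 on the NeuroD2 arrays, a difference of -0.22 (adjusted p = 0.222 by limma). Of its 4 probe sets 3 differed by -0.25 to -0.22 and the fourth, with a mean signal of 4.05, by 0.21, so the mean of its probe sets differed by -0.12. NDUFB10 differed by -0.19, with an interval from -0.39 to 0.0036. NDUFA1, a small subunit needed to build the membrane arm, read 12.81 and 12.91 against 12.67 and 12.68 (difference -0.19, adjusted p = 0.228 by limma), with the groups apart on all 4 arrays.

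A few complex I genes read in the other direction. NDUFS1, the largest core subunit and a carrier of iron-sulphur centres, read 9.83 and 9.79 with the control vector and 9.94 and 9.94 with NeuroD2. Its difference of 0.14 had an interval from -0.04 to 0.31, and only 1 of its 5 probe sets was lower. NDUFV3, named after its value was seen, differed by 0.14 with the groups apart (10.21 and 10.07 against 10.30 and 10.26). The assembly subunit NDUFS4, NDUFAB1 (the mitochondrial acyl carrier protein), NDUFB4 and NDUFV2 differed by 0.01 to 0.05, with overlapping groups. These too were singled out afterwards.

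Complex II, or succinate dehydrogenase, links the tricarboxylic acid cycle to the chain. Its genes read here were SDHA, SDHC and SDHD, and SDHB was not among the genes named through a single symbol. SDHA, its flavin-bearing catalytic subunit, read 11.03 and 10.88 on the control arrays and 10.65 and 10.71 on the NeuroD2 arrays, with both NeuroD2 arrays below both controls. The difference was -0.27 (interval -0.48 to -0.06), or -17.2%, with an adjusted p of 0.143 by limma. It was -0.19 against control array 2 alone, and also when its 3 probe sets were averaged. SDHA has near-identical pseudogenes, and 2 probe sets assigned to SDHA together with SDHAP1, SDHAP2 or SDHAP3 differed by -0.18 and -0.22. The membrane anchors did not separate the groups. SDHD read 10.09 and 10.30 against 10.05 and 10.09 (difference -0.13), and SDHC 10.18 and 10.05 against 10.08 and 10.06 (difference -0.04, and 0.02 against control array 2 alone). With the mean of probe sets the median of the 3 genes was -0.07 in place of -0.13.

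Complex III passes electrons from ubiquinol to cytochrome c, and 8 of its 9 genes were lower. Of these, 5 had the groups apart, or 55.6% of the 9, against 26.6% of all genes separated lower. The median was -0.08 and the range -0.15 to 0.03, with adjusted p-values of 0.369 or more by limma. UQCRQ, a small subunit near the ubiquinone sites, read 12.78 and 12.60 against 12.51 and 12.56 (difference -0.15, and -0.07 against control array 2 alone). UQCR10 read 12.70 and 12.57 against 12.49 and 12.49 (difference -0.14). Of the core proteins, UQCRC2 differed by -0.14 with the groups apart, while UQCRC1 differed by -0.02 with the groups overlapping. CYC1, the cytochrome c1 that hands electrons on, was the exception, at 11.84 and 11.71 against 11.80 and 11.81 (difference 0.03). UQCRB differed by -0.08. UQCR11 differed by -0.11 on its brightest probe set and by 0.04 with the mean of its 2 probe sets. UQCRH and the near-identical UQCRHL, whose signals can be shared, differed by -0.03 and -0.05.

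Complex IV, cytochrome c oxidase, gave opposite signs in its broadly expressed subunits and its tissue-restricted isoforms. Their mean signals per array were 12.66 to 12.84 and 4.13 to 4.30, so class and signal level cannot be told apart. All 9 broadly expressed subunits (COX5A, COX5B, COX6A1, COX6B1, COX6C, COX7A2, COX7B, COX7C and COX8A) were lower, 8 with the groups apart, with a median of -0.13 and a range of -0.21 to -0.06. The 8 separated genes were 88.9% of this class, against 26.6% of all genes separated lower. All 5 isoforms known mainly from muscle, heart or testis (COX6A2, COX6B2, COX7A1, COX7B2 and COX8C) were higher, 3 with the groups apart, with a median of 0.10. These 5 had mean signals below 6, where 57.1% of all 8149 genes were higher, 21.4% were separated higher and the median was 0.02. All 6 members below 6 were higher, and the other of these was ATP5MGL of complex V. Background probe sets of high GC content (18 to 25) also averaged 0.22 higher, at 7.14 and 6.83 against 7.27 and 7.14, and those of low GC content (3 to 10) 0.02 higher. The part of background in the isoform values was not tested. None of the 14 passed (smallest adjusted p = 0.167 by limma), and the difference between the classes was not tested.

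Among the broadly expressed subunits, COX7A2 read 12.37 and 12.32 on the control arrays and 12.13 and 12.13 on the NeuroD2 arrays. The difference was -0.21 (standard error 0.07, adjusted p = 0.167 by limma), and 4 of its 5 probe sets were lower, so the mean of its probe sets differed by -0.12. COX7C, with 12.97 and 12.98 against 12.79 and 12.81, had controls that differed by less than 0.02 and a difference of -0.17. COX7B was as tight, at 12.73 and 12.74 against 12.60 and 12.62 (difference -0.13). For both genes the gap between vectors was therefore larger than either within-group distance, yet the fit, which borrows spread from all genes, gave adjusted p-values of 0.240 and 0.356 by limma. COX8A read 13.40 and 13.17 against 13.12 and 13.08, and its difference of -0.19 was -0.08 against control array 2 alone. COX6A1 differed by -0.10 (13.64 and 13.59 against 13.52 and 13.51) and COX6B1 by -0.12.

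The tissue-restricted partners gave low signals on every array. COX6A2, the muscle partner of COX6A1, read 5.86 and 5.77 against 5.89 and 5.94, a difference of 0.10. COX6B2, the testis partner of COX6B1, read 4.79 and 4.64 against 5.02 and 4.80, a difference of 0.19 whose interval ran from -0.07 to 0.45, or 0.09 averaged over its 3 probe sets. COX8C read 3.59 and 3.46 against 3.60 and 3.70 (difference 0.12). COX7A1, at 3.95 to 4.11, and COX7B2, with group means of 2.90 and 2.99, had overlapping groups and differed by 0.02 and 0.08. Of the 4 muscle markers, MYH7, ACTC1 and CKM read 3.79 to 4.45 on the same arrays and DES 6.61 to 6.75, with 0 of the 4 passing.

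Of the COX4 isoforms, which carry the known exchange of a complex IV subunit in hypoxia and are not covered by the name pattern above, COX4I1 read 12.75 and 12.74 with the control vector and 12.57 and 12.61 with NeuroD2 (difference -0.15, adjusted p = 0.303 by limma), or -0.26 averaged over 3 probe sets. COX4I2, the hypoxic partner, read 5.11 and 4.89 against 4.77 and 4.98 (difference -0.13, groups overlapping). LONP1, the protease known to remove COX4I1 protein in that exchange, read 10.53 and 10.38 against 10.49 and 10.45 (difference 0.01).

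In ATP synthase 17 of 18 genes were lower, 14 with the groups apart, and the median was -0.11 (-0.10 against control array 2 alone and -0.11 against control array 1 alone). The 14 separated genes were 77.8% of the complex, against 26.6% of all genes separated lower. ATP synthase was the one complex in which the controls were balanced, with control array 1 the higher control in 9 of 18 genes. The median was -0.08 for the 5 genes of the F1 head and central stalk, where ATP is made, and -0.11 for the 3 c-ring genes, which turn with the proton flow. It was -0.12 for the 4 genes of the peripheral stalk and -0.15 for the 6 genes of the other membrane subunits. The median of the c-ring was -0.03 against control array 2 alone.

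ATP5ME, a membrane subunit that helps pair ATP synthase complexes, had the lowest difference of all 80 members. It read 11.85 and 11.88 with the control vector and 11.53 and 11.61 with NeuroD2. The difference was -0.30 (standard error 0.08, interval -0.48 to -0.11), or -18.5%, at an adjusted p of 0.0912 by limma. It was -0.31 and -0.28 against control arrays 2 and 1 alone, and both probe sets were lower. Averaged over both it was -0.32 and passed (adjusted p = 0.0397 by limma). ATP5MG, its neighbour in the complex, read 12.05 and 12.13 against 11.86 and 11.94, a difference of -0.19 on the brightest of 3 probe sets and -0.31 with their mean. ATP5MJ differed by -0.17, but only 4 of its 7 probe sets were lower and their mean differed by -0.01.

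In the catalytic head, ATP5F1A read 13.03 and 13.05 against 12.97 and 12.96, a difference of -0.08 with the groups apart, and the catalytic ATP5F1B differed by -0.06, also with the groups apart. ATP5MGL, an ATP5MG-like gene, was the exception at 4.22 and 4.09 against 4.48 and 4.35. Its difference of 0.26 (interval 0.03 to 0.48, adjusted p = 0.178 by limma) was the highest of all members.

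**Figure D2:**
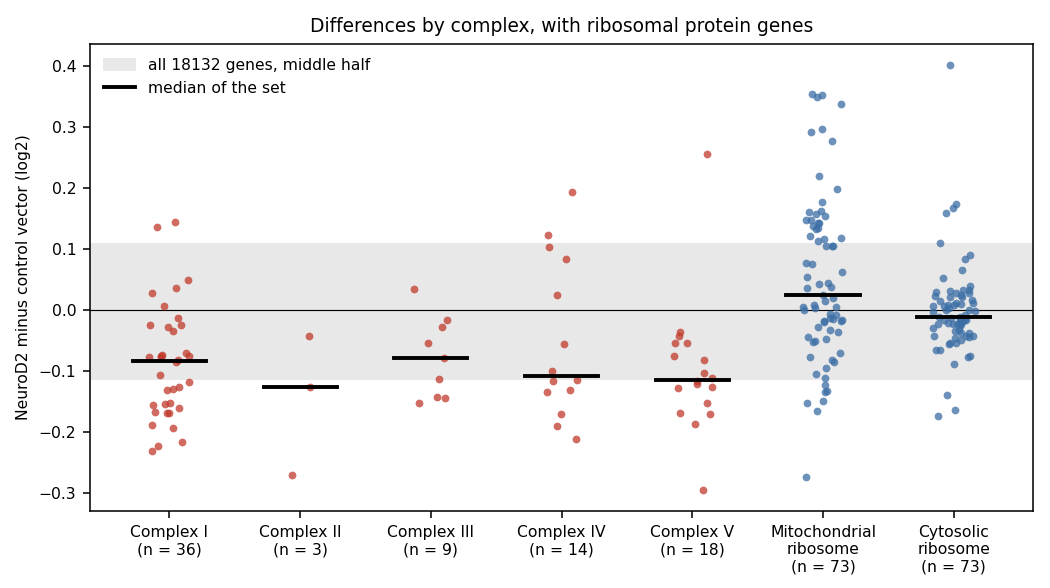
Difference between the vectors (NeuroD2 minus control, log2, vertical axis) for each gene of complexes I to V (red) and, for comparison, of the mitochondrial and cytosolic ribosome (blue). Bars are set medians and the grey band is the range from the lower to the upper quartile of all 18132 genes; the medians of the complexes lie between -0.13 and -0.08, those of the ribosomal sets at 0.02 and -0.01.

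Other gene lists gave both unlike and like counts. Of 73 mitochondrial ribosomal protein genes 30 were lower (median 0.02). In that list 13 (17.8%) were separated lower and 31 (42.5%) separated higher, against 26.6% and 24.2% of all genes. Of 73 cytosolic ribosomal protein genes 43 were lower (median -0.01) and 1 passed, higher. Of 18 glycolysis genes, by contrast, 16 were lower and 11 (61.1%) were separated lower, close to the shares among the members, though with a median of -0.05. Of 9 genes listed for mitochondrial carriers, channels and ADP/ATP exchange 9 were lower, with a median of -0.11. The groups were apart in 5 (55.6%, against 26.6% of all genes separated lower). Among the 9, VDAC2 differed by only -0.0008, and CKMT2 and UCP3 gave low signals (3.24 to 3.97). UCP3 differed by 0.01 averaged over its 3 probe sets. The differences between these lists and the respiratory chain were not tested. Genes of like signal were also counted. Within the signal range of the 74 members whose mean was 6 or more, 1431 of 2597 other genes were lower, with a median of -0.02, against 67 of the 74 members and a median of -0.11. Of those other genes 37.0% were separated lower and 30.3% higher, against 68.9% and 2.70% of the 74 members. The split at 6 was set after the values were seen.

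**Figure D3:**
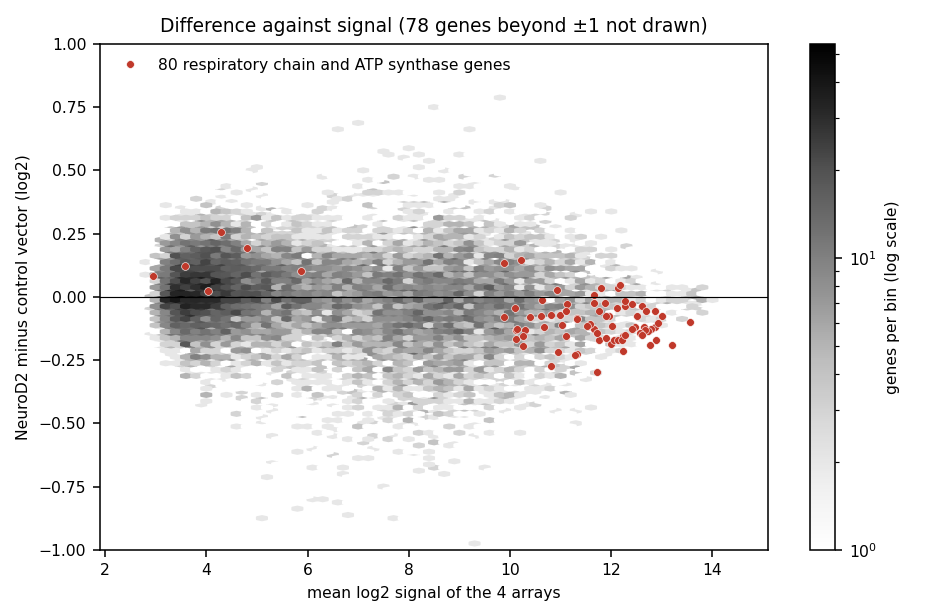
Difference between the vectors (log2, vertical axis) against the mean log2 signal over the 4 arrays (horizontal axis) for all genes (grey, darker where more genes fall, log scale) and the 80 members (red); 78 genes with differences beyond 1 in size are not drawn. Most members sit at signals of 10 to 13 and below 0, and 6 members with signals below 6 sit above 0.

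Reading several probe sets per gene gave a smaller shift of the same sign. The 80 members were covered by 182 probe sets, of which 138 were lower, with a median of -0.09, and 0 passed when each was tested on its own (18 had an unadjusted p below 0.05 by limma). Of the 48 members with more than 1 probe set, all probe sets were lower in 27, all were higher in 5 and signs were mixed in 16. With probe sets averaged within each gene, 62 of 80 members were lower and the median was -0.08. For 32 members the brightest probe set was of a kind (suffix s_at or x_at) that can match related transcripts, and the median was -0.10 for these and -0.11 for the other 48.

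Genes around the chain were examined by lists. Among subunits and carriers that the name pattern left out, the ATP synthase inhibitor ATP5IF1 differed by -0.19 (12.47 and 12.49 against 12.27 and 12.30, adjusted p = 0.198 by limma), or by -0.37 averaged over its 4 probe sets, which passed (adjusted p = 0.0291), and the mobile carrier cytochrome c (CYCS) by 0.05. Of 3 subunits encoded in mitochondrial DNA, 0 passed. ND1 read 12.16 and 12.24 against 12.42 and 12.37 (difference 0.20), ND4 differed by 0.04 and COX3 by -0.03.

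Assembly factors, which build the complexes without staying in them, were mixed in direction. Of 19 complex I assembly genes, 10 were lower and 0 passed, with a median of -0.04. They ranged from -0.32 for COA1 (-0.18 averaged over its 2 probe sets) to 0.33 for NDUFAF2, which read 9.66 and 9.70 against 9.99 and 10.03 (adjusted p = 0.0636 by limma). Of 4 complex II assembly genes, 0 passed (SDHAF3 -0.25, SDHAF2 -0.04). Of 9 complex III assembly genes, 0 passed, with the largest differences for UQCC2 (-0.32, but -0.03 averaged over its 7 probe sets) and UQCC4 (0.18). Of 6 genes listed for ATP synthase assembly, 0 passed (FMC1 -0.35, NCLN 0.22). FMC1 gave low signals (3.89 to 4.35), and whether NCLN acts in this assembly was not examined.

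Of 23 complex IV assembly genes, 12 were lower, 1 of which passed. COX15, which makes the haem A of cytochrome c oxidase, read 9.36 and 9.24 with the control vector and 8.87 and 8.79 with NeuroD2. It fell by 0.47 (adjusted p = 0.0397 by limma), but averaged over its 7 probe sets it differed by -0.11 (adjusted p = 0.442). HIGD1A, a hypoxia-induced protein that binds complex IV, read 7.81 and 7.98 against 7.47 and 7.47, a difference of -0.42 that did not pass (adjusted p = 0.0537 by limma).

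Regulators of mitochondrial biogenesis showed both directions. PPRC1, a coactivator related to PGC-1alpha, read 8.14 and 8.13 against 8.53 and 8.52 and rose by 0.39 (adjusted p = 0.0436 by limma). GABPA, the DNA-binding subunit of GABP, read 8.63 and 9.13 against 8.25 and 8.41, and its difference of -0.55 did not pass (adjusted p = 0.138 by limma). It was -0.30 against control array 1 alone and -0.81 against control array 2 alone. TFB1M, a mitochondrial rRNA methyltransferase, differed by -0.39 (adjusted p = 0.0507). TFAM, which packages mitochondrial DNA, differed by 0.19, NRF1 by -0.08 and PPARGC1A, which encodes PGC-1alpha, by 0.02. Of the 17 genes of this list 1 rose, 0 fell and 16 did not pass.

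Fuel pathways and exchange proteins held both further genes that passed. ALDOC, a brain aldolase of glycolysis, fell by 0.82 (8.89 and 8.82 against 8.07 and 8.01, adjusted p = 0.0088 by limma). The other 17 glycolysis genes did not pass, among them the phosphofructokinase PFKL (-0.22) and HK2, the inducible hexokinase (0.28). VDAC1, the main channel of the mitochondrial outer membrane, fell by 0.60 (11.72 and 11.71 against 11.15 and 11.08, adjusted p = 0.0173 by limma). The inner-membrane ADP/ATP carrier SLC25A4 differed by -0.22 (adjusted p = 0.172). Of 16 tricarboxylic acid cycle and pyruvate dehydrogenase genes 12 were lower and 0 passed (IDH2 -0.29, PDHB -0.23). PDK1, the HIF target that switches pyruvate dehydrogenase off, read 8.71 and 9.04 against 8.41 and 8.48 (difference -0.43, adjusted p = 0.117 by limma), and the difference was -0.26 against control array 1 alone. Of 13 HIF-linked genes 0 passed, and 6 (46.2%) were separated lower and 4 (30.8%) separated higher, against 26.6% and 24.2% of all genes. In each direction 4 had an unadjusted p below 0.05 by limma, together 61.5% of the list, against 21.8% of all genes. The 4 higher genes were CHCHD4 (0.23), VEGFA (0.23), FOXO3 (0.21) and ADM (0.20), named after their values were seen. COX15, PPRC1, ALDOC and VDAC1 kept their direction when any 1 of the 4 arrays was left out. With the replicate block COX15 (adjusted p = 0.0635 by limma) and PPRC1 (adjusted p = 0.0818 by limma) did not pass.

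**Figure D4:**
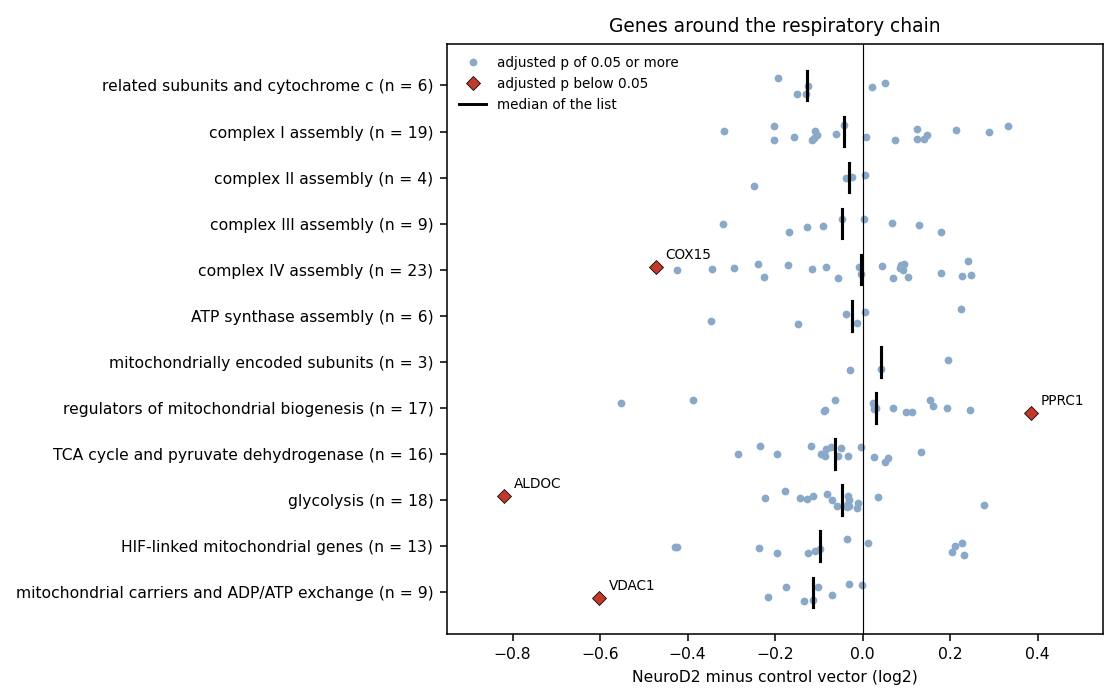
Difference between the vectors (NeuroD2 minus control, log2, horizontal axis) for genes of 12 lists around the respiratory chain, 1 point per gene and 1 row per list, with the list median as a bar. Red diamonds mark the genes past an adjusted p of 0.05 (COX15, ALDOC and VDAC1 lower, PPRC1 higher), and all other genes are blue points.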

How the data were processed

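Total RNA of 4 samples was measured on human PrimeView arrays, per the labels. The authors' deposited table was used, whose values were taken to be log2 from their range (2.65 to 14.3) and near-equal array medians (5.98 to 5.99); software, background correction and normalization: not given in the sources used here. Of 49395 probe sets, 44988 with 1 platform symbol were used and 1832 with several and 2473 with none were left out. A gene was its probe set with the highest mean.

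limma 3.58.1 in R 4.3.3 compared 2 NeuroD2 with 2 control arrays over all 18132 genes (group only, two-sided, 2 residual and 3.84 prior degrees of freedom, Benjamini-Hochberg adjustment over all genes). Intervals are 95%. An exact permutation test of 2 against 2 cannot go below p = 0.333, so none was used. The fit was tested on simulated data.

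The members and lists were chosen with earlier results of these data known. Named in full were, per complex, the 4 largest absolute differences, the brightest and dimmest gene and all with an unadjusted p below 0.05; per list, the 2 largest differences and all that passed; and fixed regulators and isoform pairs (NDUFA4 and NDUFA4L2 were not analysed here). Other genes named were chosen after their values were seen. Alternatives were a replicate block, each array left out, quantile normalization, median centring, averaging or separately testing probe sets, testing only brighter genes, and limma's trend and robust options.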

Additional observations from a re-analysis of the deposited data

Results flagged for a closer look

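The 18 probe sets for control RNAs added at hybridisation, which no comparison used, read 0.39 higher on the NeuroD2 arrays than on the control arrays (log2), while most respiratory chain genes read lower on the same arrays. They averaged 9.56 and 9.90 on control arrays 1 and 2 and 10.10 and 10.13 on the NeuroD2 arrays. The part of this difference in the results was not tested.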

How the results depend on the processing

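The median difference of the members stayed below 0 under all 12 alternatives, from -0.12 to -0.07. Leaving out 1 array gave medians of -0.1201 to -0.0716 (the latter without control replicate 1), 0 to 21 members below an unadjusted 0.05 (the most without control replicate 2, none without NeuroD2 replicate 1) and 0 to 66 genes passing overall (0 by limma without either control array, with 4428 and 4102 genes at an unadjusted p below 0.05). With an intensity trend 8 of 80 members passed, against 2056 of all 18132 genes. They were ATP5ME, COX7A2, COX7C, SDHA, NDUFA1, NDUFB2, NDUFB6 and NDUFB1 (adjusted p from 0.00755 to 0.0488 by limma). With the dimmer genes removed before testing (a level filter) 3 of 74 members passed (ATP5ME, SDHA and COX7A2), while 2081 genes passed overall. In neither setting did members pass at a higher rate than all genes tested. With the mean of probe sets 1 member passed (ATP5ME). None passed under the other alternatives that kept all arrays. All of these members that passed were lower. Of the other 30 named genes, 11 more passed with the trend (among them ATP5IF1, GABPA, PDK1, TFB1M, HIGD1A and NDUFAF2), 8 with the level filter, 5 with the mean of probe sets, and 1 each with median centring (TFB1M) and quantile normalization (HIGD1A). Differences moved by over 1.5 times or changed sign in 14 of 30 named members and 13 of the other 30 without 1 of the control arrays, and in 7 and 10 with the mean of probe sets. Members at an unadjusted p below 0.05 numbered 34 with the trend (42.5%, against 24.0% of all genes), 15 with the level filter (20.3%, against 37.3%) and 18 of 182 with every probe set tested (9.89%, against 19.9%), so they were above the background in the first setting and below it in the others. Without control replicate 2 they were 26.2%, against 22.6%. Genes passing overall numbered 864 in the fit reported, 2056 with the trend, 2081 with the level filter, 1361 with every probe set and 335 with the replicate block. The replicate numbers are shared by both groups but do not show pairing (deviations of same-numbered arrays correlated at 0.08 over genes). With the replicate block 6 members had an unadjusted p below 0.05, 0 passed and the median was -0.11.

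Among the named genes and these alternatives, the largest difference that changed sign was -0.11, for UQCR11. That is about the size of the member median of -0.11. With the mean of probe sets UQCR11 became 0.0391, NRF1 0.0324 and PPARGC1A -0.0037, and with quantile normalization COX7A1 became -0.0009. Leaving out 1 array gave -0.0515 to 0.0996 for COX7A1, -0.1088 to 0.0234 for SDHC, -0.1069 to 0.0298 for SDHAF2, -0.0642 to 0.0871 for LONP1 and -0.14 to 0.19 for PPARGC1A. The number of arrays limits what can be called, since the typical 95% interval of a member reached 0.19 to either side.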

Other observations

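Members whose arrays agreed closely showed the same sign as the rest. In 28 members the SD was below 0.05 in both groups, and 25 of these were lower with the NeuroD2 vector, with a median of -0.09. The control SD exceeded the NeuroD2 SD in 67 of the 80 members. The control pair also lay further apart over all genes (median distance 0.12, against 0.07 for the NeuroD2 pair).

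Probe sets assigned to a member and another gene were not used above. Of 11 such probe sets, that shared by NDUFS1 with GCSH and related loci differed by 0.14, as did the brightest NDUFS1 probe set. A pair shared by COX7A2 and TMEM30A differed by -0.29 and -0.15, that shared by ATP5MF and the read-through ATP5MF-PTCD1 by -0.10, and that shared by NDUFS3 and PTPMT1 by 0.01.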
